A study of Mus musculus with 44 samples.

Results

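Long-overlap joins away from AsiSI sites are translocation junctions with an overlap of bait and prey. The last bases of the bait and the first bases of the prey were the same 6 or more bases of the read. Their prey lay far from every listed full recognition motif of AsiSI, the nuclease that made the breaks in 26 of the libraries. The joins were taken from all 32 deposited junction tables. A member had its prey on an autosome, X or Y, over 10 kb away from the bait break and from each of the 1109 motifs in the study's list, and an overlap of at least 6 nt. This left 4532 of 148726 junctions, out of 43929 distal junctions of any overlap. The members were thus selected on measured overlap length and prey position, which are given only as description.

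High-throughput genome-wide translocation sequencing (HTGTS) amplifies outward from a primer next to a fixed break, the bait, and reads across the point at which that end was joined to another locus, the prey. All libraries came from C57BL/6 mouse embryonic fibroblasts (MEFs), which the labels give as WT with 4OHT. Per the study's methods, 26 libraries were made from AsiSI-MEFs, which carry an inducible AsiSI nuclease fused to an estrogen receptor domain and received doxycycline (3 µg/ml, 24 h) and 4OHT (1 µg/ml, last 6 h). The other 6 were made from WT MEFs in which Cas9 and a guide cut at the same locus, collected 48 h after the guide was transfected. AsiSI-MEFs were given DMSO (n = 6) or 100 µM CK-666, an inhibitor of the actin nucleator ARP2/3 (n = 6). Further AsiSI-MEFs had 10 µM NU7441, an inhibitor of the DNA-PKcs kinase, from 1 h before induction (n = 3, with 3 controls), 3 µM wiskostatin, an inhibitor of the ARP2/3 activator WASP (n = 2, with 2 controls), or a plasmid for nuclear actin R62D, which does not polymerize (n = 2, with 2 empty-vector controls). Cas9-cut MEFs were given CK-666 (n = 3) or its vehicle, DMSO (n = 3). The study calls its replicates biological, and the labels do not say whether each was a separate culture.

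Classical non-homologous end joining seals broken ends with little or no shared sequence, and it depends on DNA-PKcs. Alternative end joining anneals short stretches of identical bases, called microhomology, that resection has exposed on both ends, and long overlaps at a junction are commonly read as its mark. The same overlap can also be made in the tube, when a primer or an unfinished strand anneals to a similar stretch elsewhere, and a read alone does not separate the origins.

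The bait break lay at position 13271321 of chromosome 2 (mm10), in an untranslated region of Rsu1, 10 bp from its annotated transcription start. Offsets below count from the last bait base before the AsiSI cut, which is 0, and positive offsets lie beyond the cut. The stretches of bait in which the overlaps accumulated are shown first, from the mm10 reference on the plus strand, with a frequent overlap of each stretch in capitals.
Bait before the break, chr2:13271292-13271321: cgcagcaggaACACACCCtgtcccagcgat
Bait past the break, chr2:13271338-13271367: aaatccggccaaCCCCACGCCCCtcccggc
The following 5 prey positions, each hit repeatedly, carried bait letters exactly or with 1 base different. They are shown in the reading direction of the junction, and other recurrent positions held more mismatches. In the first 2 the overlap is the AsiSI motif of the bait, which spans the break and is not printed whole above. Bases under the overlap are in capitals.
Prey in Jmy, chr13:93498834-93498863, minus strand: atcccgagatGCGACCGCcagtgccacgcc
Prey in Ralb, chr1:119504481-119504510, minus strand: cgctctccgcGCGATTGCaggcctcctagt
Prey in Gm11841, chr4:12126901-12126930, plus strand: ggccacagccCACACCCTGccatccagctg
Intergenic prey, chr9:20073323-20073352, plus strand: atcctccctcCCCCACGCCCCcctttagtt
Intergenic prey, chr10:112640416-112640445, plus strand: ctcaggtcggGGCCAACCCCACcaacttct
In the first 2, 1 base under the overlap differed from the bait. In the last 3, every base under the overlap was the bait's own.

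The libraries held between 362 and 18428 junctions and between 44 and 4327 distal junctions. The members per library ranged from 2 to 408. The CK-666 library of replicate 2 supplied only 2 of them. Libraries fell into 6 sequencing runs by their read names, and treated and control libraries of the same number always shared a run. The shortest bait kept in a table ended at offset -15 in the 4 later runs but nearer to the primer in the 2 runs of the CK-666 experiment with the AsiSI bait. A bait end at offset -17, with 103 members, therefore occurred only in 10 libraries of those 2 runs.

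The overlaps were mostly short, with a long tail. Of the members, 707 had 6 nt, 544 had 7 nt and 718 had 8 nt, against 808 distal junctions just outside the limit at 5 nt and 749 at 4 nt. The median was 9 nt (quartiles 7 and 12), and 46.3% of the members had 10 nt or more. Counts fell from 808 at 5 nt to 707 at 6 nt without a break at the limit, so the members are one end of a range. At the other limit, 32 members lay 10 to 12 kb from a motif, and 9 long-overlap junctions lay 8 to 10 kb from one and were left out. The position limit mattered little, since 90.5% of the members lay more than 100 kb from any motif.

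An overlap as the tables give it is not always identity, because both alignments may hold mismatches within it. In 2904 of 4532 members (64.1%) every overlapping base matched the reference at both bait and prey. A mismatch to the prey alone occurred in 874, to the bait alone in 651 and to both in 103. A stretch of at least 6 nt without mismatch remained in 3914 members (86.4%). The longest overlaps were of this imperfect kind. The member with 34 nt, on chromosome 13 at 105302635 in a DMSO library of the AsiSI bait, had 5 bait mismatches and a longest exact stretch of 13 nt. The members with 30 nt (chromosome 9, 91539646, in an intron of Gm29478) and 29 nt (chromosome 7, 42966347, intergenic) had exact stretches of 8 and 9 nt, and both came from replicate 3 of the Cas9 bait with DMSO. The member with 27 nt, in an intron of Atrnl1 on chromosome 19 at 57642747, had the longest exact stretch of these, 17 nt, and its read carried CCGGCCAACCCCACGCCATTCCCGGCC at the junction.

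The members were divided by where the overlap lay on the bait. The bait had been read past its own break before the overlap began in 2127 members (46.9%). The overlap ended at or before the break in 1722 (38.0%), reached back into the 20 bases of the nested primer in 373 (8.23%) and spanned the break in 310 (6.84%). The past-break members had a median overlap of 10 nt and those ending before the break 8 nt. Overlaps that reached the primer had a median of 12 nt, and those across the break 8 nt. The classes were thus unequal in length as well as in number, and the longest overlaps were mostly past the break.

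**Figure D1:**
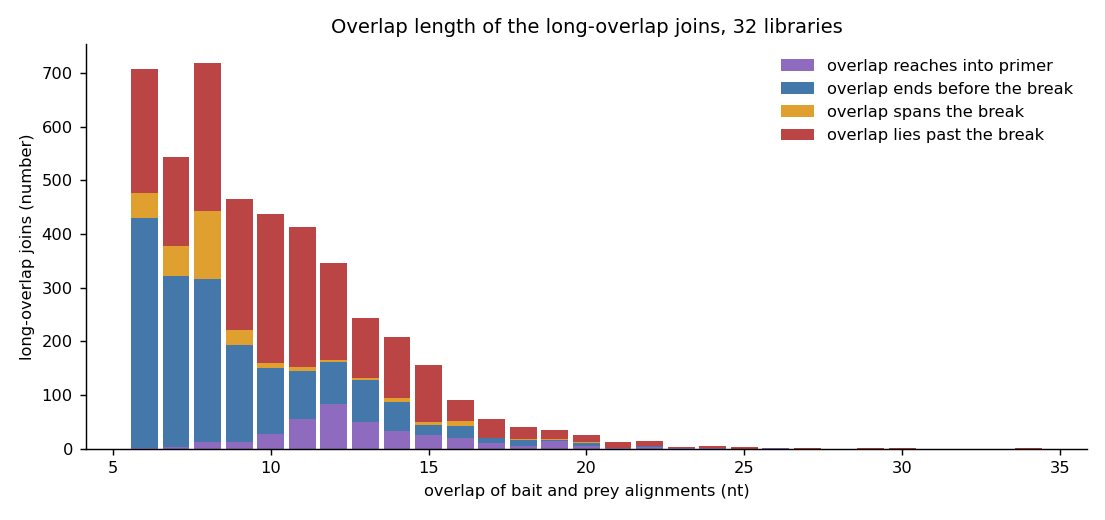
Number of long-overlap joins (vertical axis) at each overlap length in nt (horizontal axis), over all 32 libraries. Colours stack the joins by where the overlap lay on the bait. Overlaps before the break are most numerous at 6 nt, and those past the break are the most numerous class at each length from 9 to 25 nt.

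Most past-break reads contained the whole AsiSI motif of the bait. The motif spans offsets -4 to +3. A bait read 3 bases past the cut without gap or mismatch thus holds it by construction, and a high share follows largely from that. Among the 2114 past-break members that read at least 3 bases beyond the AsiSI cut, 1966 (93.0%) held the whole motif GCGATCGC in their bait part. With the AsiSI bait it was 1268 of 1347 (94.1%) and with the Cas9 bait 698 of 767 (91.0%). Among other distal junctions that read as far past the break, 84.6% of 2656 held it, and 75.3% of 1290 with the AsiSI bait. Whether these templates had never been cut or had been precisely resealed was not tested, nor was their part in the overlaps.

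The bait ends were not spread evenly. The most frequent was offset -14 (378 members, 31 libraries), followed by -12 (267), -3 (240), +43 (239), +39 (180), -13 (170), +16 (167), +38 (149), +34 (147) and +3 (139). The ends from -14 to -12 close the ACACACCC stretch of the bait, and they held 18.0% of the members but 3.29% of the other distal junctions. The ends from +33 to +46 lie in the cytosine-rich stretch printed above, in which the 30 bases printed held 17 C and 5 G. They held 1193 members (26.3%) from 30 libraries, but only 331 of the other distal junctions (0.840%). Both baits ended there, with 23.5% of the AsiSI members and 33.1% of the Cas9 members. Since an overlap fixes which bait letters precede the end, these concentrations describe the members and were not tested.

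**Figure D2:**
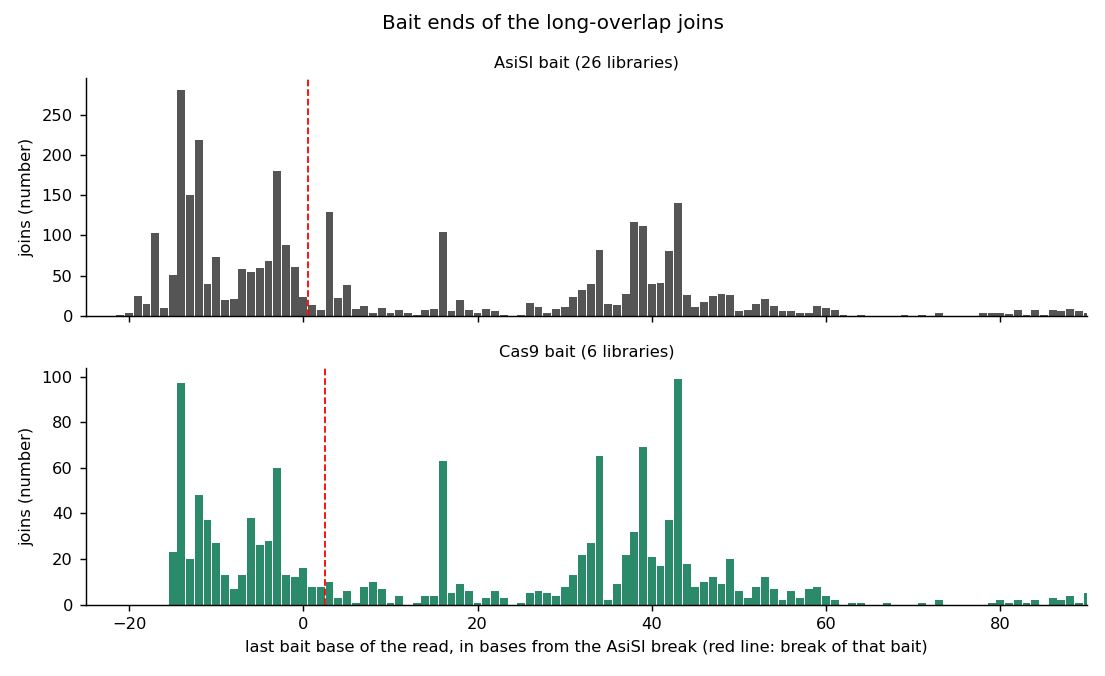
Number of long-overlap joins (vertical axis) by the last bait base of the read, in bases from the AsiSI break (horizontal axis), for the AsiSI bait above and the Cas9 bait below. The red line marks the break of each bait, which lay 2 bases further for Cas9. Both baits peak near -14, at -3, at +16 and between +33 and +46.

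A few letter strings recurred often among the overlaps, though most members carried other strings. The members carried 1293 different overlap sequences, 815 of them once, and the 10 most frequent covered 851 members (18.8%). ACACAC was first, with 194 members in 31 libraries at 193 positions on 21 chromosomes, all at offset -14. ACACACCC followed with 122, CACACA had 87 (all at offset +16), AACACAC 69 and ACACACC 50. The strings of the cytosine-rich stretch were CCCCACGCCCC (63 members), CCCCACGCCC (55), CCCCTCCC (50) and GCCCCTCCC (46). The remaining one, GCGATCGC, had 115 members at only 6 positions, unlike the others, which were scattered over 39 to 193 positions.

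The 6-base overlaps of alternating A and C mostly lay in or beside simple repeats of the prey. The motif CACACACACACA or its reverse complement was searched in the 100 bases around each prey. It was present for 152 of 194 ACACAC members (78.4%) and 76 of 87 CACACA members (87.4%), but for only 304 of 815 members with a bait end from -14 to -12 (37.3%). It was present in 13.3% of all members, against 1.63% of all 100-base tiles of the reference. Members with bait ends at +33 to +46 held it in 4.95%. Part of each match is the overlap itself, so the share is a description of where such overlaps were found.

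Recurrence of a prey position was of 2 kinds. Of the members, 711 (15.7%) shared their exact position and strand with a member in another library, and 26 positions were seen in 5 or more libraries. The share was 54.5% for overlaps across the break, 15.9% past the break, 11% into the primer and 9.29% before the break. Among all other distal junctions it was 21.7%, and among those outside the recurrent windows defined below 7.37%. These classes differ in size, which itself moves the share, and no test was made.

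The first kind lay at sites that differ from the AsiSI motif by 1 base. The position most widely shared was chromosome 13, 93498853 (minus strand), in a coding exon of Jmy, a regulator of actin assembly and p53, with 33 members in 27 libraries, including all 26 with the AsiSI bait and 1 of 6 with the Cas9 bait. Chromosome 9, 42264147 (plus strand), in an untranslated region of Sc5d, a sterol desaturase gene, had 41 members in 23 AsiSI libraries and 1 Cas9 library. In Ralb, which encodes a small GTPase, the intronic positions 119504500 (minus strand) and 119504496 (plus strand) of chromosome 1 had 24 and 25 members in 20 and 19 AsiSI libraries, and no Cas9 library had either. Chromosome 10, 82859695 (minus strand), in an intron of the thioredoxin reductase gene Txnrd1, had 23 members in 16 AsiSI libraries and 1 Cas9 library.

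Counted from 1 at the 5′ end of the motif on the plus strand, the nearby site differed from GCGATCGC by A4G in Jmy, T5C in Sc5d and G3A in both Ralb and Txnrd1. The reads carried the bait's version, so at 4 of these positions the overlap of 8 nt held 1 prey mismatch and the exact stretch was 4 or 5 nt. At the plus-strand Ralb position the 7 overlapping bases ATCGCGC matched both. The 10-kb windows around these positions held 57 (Sc5d), 54 (Ralb), 42 (Jmy) and 26 (Txnrd1) members, beside 277, 50, 171 and 73 other distal junctions. Members within 20 bases of a site with at most 1 mismatch to the motif numbered 194 in all, and 171 of them were AsiSI joins across the break, where they made up 67.3% of 254. With the Cas9 bait such sites accounted for 5 of 56 joins across the break (8.93%).

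The second kind consisted of positions with between 0 and 3 other distal junctions in their 10-kb window. Chromosome 9, 20073333 (plus strand), intergenic, had 15 members in 13 libraries, 10 AsiSI and 3 Cas9, with CCCCACGCCCC at offset +39 and no other distal junction in its 10-kb window. Chromosome 8, 124535679 (plus strand), in an intron of Cog2, a gene of Golgi transport, had 12 members in 4 AsiSI and 6 Cas9 libraries, with the bait ending at +42 and again no other distal junction in the window. Chromosome 17, 66291184 (minus strand), intergenic, had 13 members in 11 libraries at +43, with 1 other distal junction. There the medians were an overlap of 15 nt, 2 bait mismatches and a longest exact stretch of 8 nt. Chromosome 10, 112640426 (plus strand), intergenic, had 11 members in 10 libraries, with GGCCAACCCCAC at +34 and 3 others.

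Positions before the break also recurred, with 7 of them seen in 5 or more libraries, against 13 past it. Chromosome 4, 12126911 (plus strand), in a non-coding exon of Gm11841, had 11 members in 11 libraries with CACACCCTG at offset -10, and its window held no other distal junction. It lay 10544 bp from a motif, just inside the distance limit. The same 9 bases recurred at 12115905 in Gm11839 with 9 members in 9 libraries. The reference letters around both were nearly the same, so reads could be split between these copies. The 4 positions past the break named above each had members of both baits. Also among the 10 windows richest in members was chromosome 2, 98660001 to 98670000, at Gm10800, with 12 members beside 2297 other distal junctions.

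Recurrent windows were set on the Cas9 libraries, as 10-kb windows with at least 20 distal junctions over those 6 libraries, which gave 79 windows, none of them within 5 Mb of the bait. They held 11910 distal junctions but 61 members. In the 13 control libraries of the AsiSI bait, which were not used to set the windows, the long-overlap joins lay there in 0.576% on average (range 0 to 2.04%) and the other distal junctions in 25.3% (2.85 to 60.1%). The difference was -24.7 points (SD 21.4), lower in 13 of 13 libraries (sign-flip permutation test, 2-sided, adjusted p = 0.00061 over 5 within-library comparisons). Of the 18484 distal junctions of the Cas9 libraries, 1317 were members, so the windows mark mainly where other distal junctions recur. The scarcity of members there is therefore partly built in, and the test cannot separate it from a trait of the members.

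The bait had passed the break before the junction more often in members than in the other distal junctions of the same library. The shares were 35.2% ± 15.2 (SD, n = 13) and 12.4% ± 8.62. The members' shares ran from 12.1% to 59.0% with a median of 36.9%, and the others' from 3.45% to 31.8% with a median of 10.2%. The difference was 22.9 points (SD 21.7), higher in 11 of 13 libraries (sign-flip permutation test, 2-sided, adjusted p = 0.00549). Members were selected by letters shared with the bait, so the selection itself bears on where on the bait they lie. The test cannot separate this from other differences. The ranges overlapped.

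The prey of the long-overlap joins were richer in GC than the pooled other distal junctions. The 100 bases around the prey had 53.9% ± 3.34 GC (SD, n = 13) in members and 42.6% ± 2.35 in the other distal junctions, with ranges of 49.5% to 62% and 38.1% to 46.3% that did not overlap. The difference was 11.3 points (SD 3.30), higher in 13 of 13 libraries (sign-flip permutation test, adjusted p = 0.00061). Those bases include the overlap, whose letters the bait dictates. Over the 50 prey bases beyond the overlap, a measure added after the data were seen, the values were 51.3% and 43.1%, a difference of 8.26 points with the same adjusted p. GC was 50.8% in distal junctions at 5 nt, just outside the limit, and 49.1% at 6 nt. The other distal junctions had a median overlap of 0 nt over all libraries. The GC difference is thus to joins with little or no overlap, and does not begin at the limit.

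By annotation, 32.6% of the members lay within 3 kb of a transcription start, 34.2% elsewhere in genes and 33.2% between genes, while such promoters cover 15.1% of the genome. Joins across the break stood at 71.6% in promoters, with 77.2% for the AsiSI bait and 46.4% for Cas9, and 176 of these 310 joins lay at 25 positions near one-mismatch sites. Overlaps past the break stood at 32.1%, before it at 28.1% and into the primer at 23.6%. The promoter share of members was 36.2% ± 9.76 (SD, n = 13) in the AsiSI control libraries and that of the other distal junctions 40.1% ± 14.9, a difference of -3.90 points that was higher in 7 of 13 libraries and did not pass the test (permutation test, adjusted p = 0.50).

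The direction of that comparison hung on the recurrent windows. Without them the shares were 35.9% and 24%, a difference of 11.9 points (permutation test, adjusted p = 0.00195). The members changed little between the settings, and the other distal junctions fell from 40.1% to 24%.

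**Figure D3:**
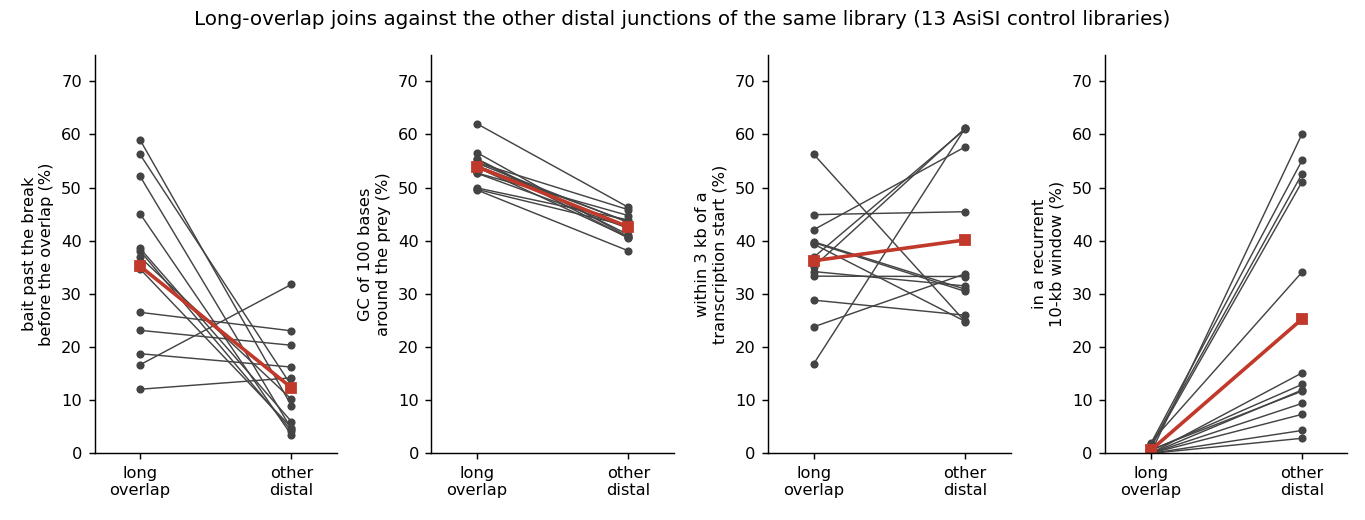
Each line is 1 of the 13 AsiSI control libraries and joins its value for long-overlap joins (left) to that for its other distal junctions (right), in percent. Red squares are means. GC is higher in the members of every library and the recurrent-window share lower, while the promoter panel shows lines in both directions.

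Chromosome 2, which carries the bait, held 406 members (8.96%), against 19.4% of the other distal junctions and 6.68% of the reference length. Of these members, 13 lay within 1 Mb of the break, and the median distance from it was 79.3 Mb. Chromosome 11 held 332 (7.33%, for 4.48% of length) and X 76 (1.68%, for 6.28%). The strand was balanced, with 50.2% of prey on the plus strand.

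The share of distal junctions that were long-overlap joins varied more between experiments than with any treatment. In the 6 DMSO libraries of the CK-666 experiment it was 21.8%, 13.7%, 15.9%, 18.0%, 56.4% and 15.9% for replicates 1 to 6. In the CK-666 libraries it was 31.0%, 4.55%, 16.1%, 30.3%, 48.1% and 19.5%. Replicate 5 was the highest in both arms, and the ranges overlapped between 13.7% and 48.1%. The 95% Wilson interval, which covers counting error only, was 51.5% to 61.1% for DMSO replicate 5, and 1.26% to 15.1% for CK-666 replicate 2. The mean difference was 1.32 points (SD 8.88, n = 6 pairs, higher in 4, exact sign-flip test, 2-sided, adjusted p = 0.75 over 3 treatments), and it turned negative without replicate 1 (-0.266) or replicate 4 (-0.878).

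**Figure D4:**
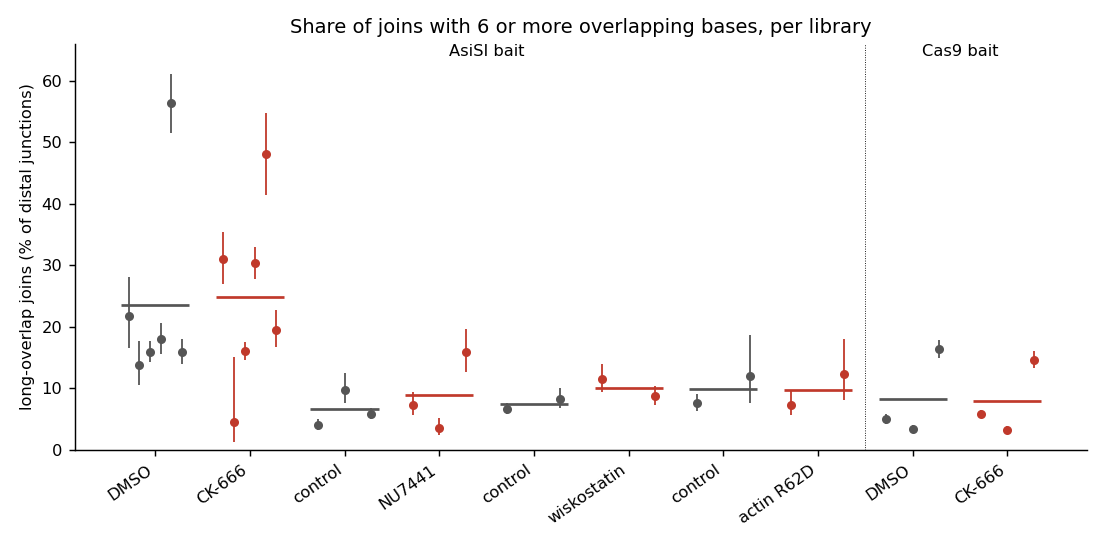
Long-overlap joins in percent of the distal junctions (vertical axis) for each library, with its 95% Wilson interval, by treatment (horizontal axis). Horizontal lines are group means, with controls in grey and treated groups in red. The first 2 groups spread from 4.55% to 56.4%, and every other library lies at or below 16.3%.

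NU7441, which blocks the kinase on which classical joining depends, left the share within the spread between pairs. The treated libraries had 7.33%, 3.51% and 15.8% and their controls 4.07%, 9.78% and 5.83% in replicates 1 to 3. The difference was 2.33 points (SD 8.17, higher in 2 of 3, exact sign-flip test p = 0.75, where 0.25 is the smallest that 3 pairs allow), and it was -1.51 without replicate 3. Replicate 3 was sequenced in another run than replicates 1 and 2.

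Past-break members were few in the NU7441 libraries. Of the members, 2 of 60, 2 of 26 and 0 of 66 had read past the break, against 32 of 83, 7 of 58 and 56 of 147 in the controls. These are 3.33%, 7.69% and 0% against 38.6%, 12.1% and 38.1%, so every treated library lay below every control. The difference was -25.9 points (SD 18.7, lower in 3 of 3), and the exact sign-flip test gave p = 0.25, its minimum for 3 pairs. This comparison was chosen after the values were seen, and 0 of 66 allows a share of up to 4.55%. As a share of distal junctions, past-break members were 0.244%, 0.270% and 0% with NU7441 and 1.57%, 1.18% and 2.22% in the controls. Members not past the break were 7.08%, 3.24% and 15.8% of distal junctions with NU7441 and 2.5%, 8.60% and 3.61% in the controls. The median read position at which the prey of members ended was 103.5, 77 and 102 with NU7441 and 97, 83 and 130 in the controls, and its part in the difference was not tested.

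The other treatments showed no such shift. With CK-666 and the AsiSI bait the past-break share was lower in 3 of 6 pairs and higher in 3 (mean difference 4.53 points, SD 14.4, exact sign-flip test p = 0.46875). With the Cas9 bait it was lower in 2 of 3 pairs (-0.173, SD 11.3, exact p = 1). It was 47.3% and 57.5% with wiskostatin against 45.1% and 52.1%, and 24% and 19% with actin R62D against 34.7% and 18.8%. Whether the change with NU7441 differs from these was not tested.

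**Figure D5:**
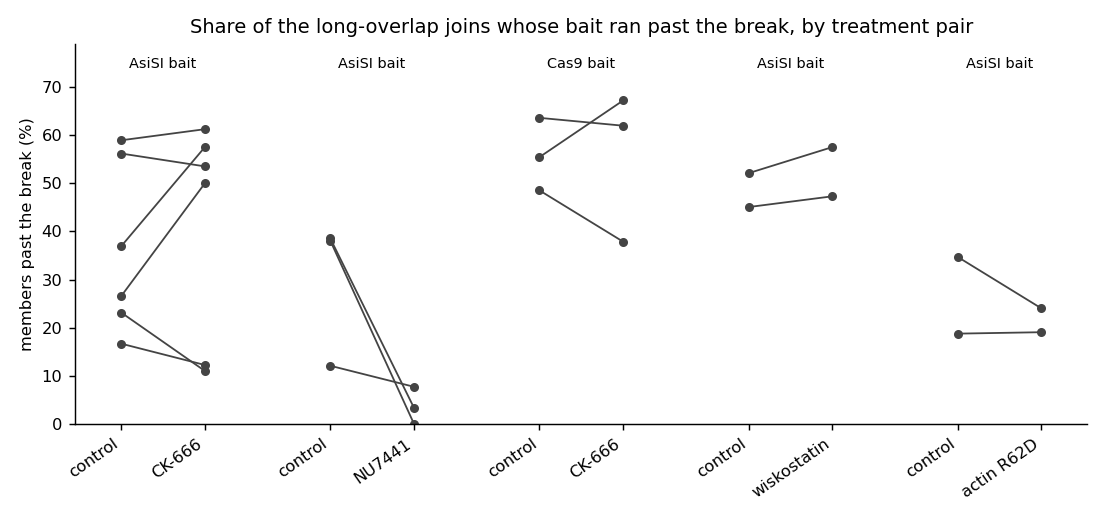
Members whose bait ran past the break, in percent of a library's long-overlap joins (vertical axis), with a line for each pair of control and treated library (horizontal axis). The NU7441 libraries end between 0% and 7.69%, below all 3 of their controls, and the other treatments have flatter lines or lines in both directions.

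With wiskostatin the long-overlap share of distal junctions was 11.5% and 8.71%, against 6.67% and 8.27% in the controls, differences of 4.82 and 0.443 points. With actin R62D it was 7.31% and 12.3% against 7.58% and 12%, differences of -0.269 and 0.251. Both treatments had 2 pairs and were not tested.

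The 2 bait types could be compared only in part. With the Cas9 bait the long-overlap share was 4.95%, 3.32% and 16.3% in the DMSO libraries. Under CK-666 it was 5.78%, 3.30% and 14.6%. The difference between treatments was -0.309 points (SD 1.3, lower in 2 of 3, exact sign-flip test p = 0.75), smaller than the gap between replicates. It turned to 0.402 without replicate 3 and to 0.016 as a mean log2 ratio of shares. Against the 6 AsiSI libraries with DMSO, the Cas9 mean was 15.4 points lower (8.20% against 23.6%, exact permutation test p = 0.202). Without DMSO replicate 5 the difference was -8.84, against all 13 AsiSI control libraries -6.87, and without the recurrent windows -21.5 (exact permutation test p = 0.0357), the one setting of those tried that passed. The windows were set on Cas9 libraries, including those compared here, so that setting treats the 2 baits unequally and its p cannot decide between them. The 6 AsiSI and 3 Cas9 libraries with DMSO shared no run, so bait and run cannot be told apart there. In the run that held both baits, the AsiSI control library had 8.27%, within the Cas9 range, and without the recurrent windows 8.61% against 6.52%, 5.93% and 17.9%.

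The members of the Cas9 bait were past the break in 58.2% of 1317 and those of the AsiSI bait in 42.3% of 3215. The Cas9 libraries ranged from 37.9% to 67.2%, and the 2 AsiSI libraries of the same run had 52.1% and 57.5%, inside that range. The NU7441 libraries excepted, the AsiSI libraries ran from 11% to 61.3%. Overlaps across the break formed 7.90% of the AsiSI members and 4.25% of the Cas9 members, and those into the primer 10.4% and 2.96%. Of the 373 into the primer, 276 came from the 2 runs in which shorter baits were kept. Median overlap was 9 nt with either bait.

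Joins near AsiSI sites were set beside the members. In the 13 AsiSI control libraries 15.1% ± 13.5 (SD) of distal junctions and 33.5% ± 11.2 of those within 500 bp of a motif had 6 nt or more. Overlap and distance from a motif are what defined the members, and bait and prey near a motif share the letters of the site, so these shares are a description with no test. Over all 32 libraries, only 53 of 23212 long-overlap junctions within 500 bp of a motif (0.228%) had read past the break. The overlaps of these 23212 had a median of 8 nt, and every base matched both references in 84.8%. The distal members of all 32 libraries had 9 nt and 64.1%.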

How the data were processed

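HTGTS libraries of 32 samples were analysed, and the 12 Hi-C samples of the series were not used. Per the study's methods, the authors sheared genomic DNA and amplified it from chromosome 2 in nested steps, the first with a biotin-tagged primer. MiSeq reads were mapped by the Burrows–Wheeler Aligner (mm10), and their translocation pipeline filtered them at default settings and a mapping quality above 30. Versions are not given in the sources used here. The deposited tables list 1 junction per line, with positions of bait and prey on genome and read, and hold no other measured value. They were not normalised, so shares within a library are reported.

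Overlap is the last bait base of the read minus the first prey base, plus 1. Prey were annotated with GENCODE M21 on GRCm38, and the motif list was found whole in that reference. Named items were the 10 windows of 10 kb, 10 overlap sequences, 10 bait ends and up to 10 prey positions with the most members or libraries, and up to 5 longest overlaps. The members and lists were chosen with earlier results of these data known. Treated and control libraries were paired by replicate number, because the study's source data set each control to 1 within its replicate. The 2 runs of the CK-666 experiment hold several pairs each, so a shared run does not tie equal numbers together. Same-numbered libraries correlated at r = 0.0248 to 0.619 for CK-666, 0.273 to 0.721 for NU7441, 0.351 to 0.859 for Cas9, 0.0630 for wiskostatin and 0.439 for actin R62D, under 0.1 in CK-666 pairs 2 and 4 and in wiskostatin, where the values give the pairing no support. Differences were tested by exact 2-sided sign flips over pairs or libraries, with Benjamini-Hochberg adjustment and a threshold of 0.05, and tests were checked on simulated data. Python 3.11.15, numpy 2.4.6, pandas 2.3.3, scipy 1.17.1 and pysam 0.24.0 were used. Intervals are 95% Wilson and cover counting error only, and limits for a count of 0 rest on 3 counts.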

Additional observations from a re-analysis of the deposited data

Results flagged for a closer look

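Of 10 combinations of group and measure examined for a sample far from the others, 2 held one, where chance gives about 1 in 20. DMSO replicate 5 of the CK-666 experiment had a long-overlap share of 56.4% of its distal junctions, with the next highest DMSO library at 21.8%. Its CK-666 partner of the same number was also the highest of its arm, at 48.1%. In DMSO replicate 5, 17.9% of the 229 members, and in its partner 28% of 100, had a bait end shorter than any kept in the later runs. DMSO replicate 1 (21.4%) and CK-666 replicate 1 (19.4%) had similar values, with long-overlap shares of 21.8% and 31.0%. Without junctions of such short bait ends, the mean long-overlap share was 22.2% in the DMSO arm and 23.2% in the CK-666 arm. With them it was 23.6% and 24.9%. The part of short bait ends in the high share of replicate 5 was not tested.

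CK-666 replicate 2 had a mean prey GC of 71.0%, with the next highest CK-666 library at 54.1%. It held 2 members.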

How the results depend on the processing

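Within-library differences kept their direction and side of the threshold in 13 control libraries under a minimum overlap of 8 nt, a distance of 100 kb, collapsed positions the bait-end minimum and each library left out. Over the 6 DMSO libraries alone, none passed the exact sign-flip test: past the break was 18.6 points (adjusted p = 0.156), GC 11.9 (0.078) and recurrent windows -34.3 (0.078), where fewer libraries limit p. Distal minus proximal, a description, was -16.4 there. Without recurrent windows the promoter difference reversed to 11.9, and with promoters of 1 kb as well to 9.95, and Cas9 minus AsiSI passed at -21.5 (exact permutation test p = 0.0357). The windows were set on the Cas9 libraries, so for Cas9 minus AsiSI that setting treats the baits unequally. Actin R62D moved to -0.644 (8 nt), 0.717 (100 kb), 1.06 (past-break joins left out) and -0.636 (longest exact stretch). As a log2 ratio, CK-666 with Cas9 reversed to 0.016. The exact-stretch, bait-end, 50-base and 1-kb alternatives were chosen after seeing the data. Without the replicate block the paired differences stayed 1.32, 2.33 and -0.309, and none passed.

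Leaving out a replicate gave -0.878 to 3.42 for CK-666 (AsiSI), -1.51 to 6.63 for NU7441, -0.877 to 0.402 for CK-666 (Cas9; positive without replicate 3), 0.443 to 4.82 for wiskostatin, -0.269 to 0.251 for actin R62D and -19.5 to -8.84 for Cas9 minus AsiSI. It gave -20.5 to -17.1 for distal minus proximal, 20.6 to 26 past the break, 10.9 to 11.8 for GC, -6.85 to -0.540 for promoters and -26.5 to -21.7 for recurrent windows. The causes were not tested.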
